A study of Mus musculus with 48 samples.

Results

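RNA of a KAT6B knockout line of mouse embryonic stem cells was compared between day 6 and day 2 of differentiation, over all genes of the deposited count table. The comparison takes 6 of the series' 48 libraries, 3 at each day, and 19340 of the 36935 genes in the table had enough counts to be tested. The line carries the genotype label KAT6B-/- KO in the E14 background, and the E14 wildtype line sampled at the same days is its control (6 further libraries). At day 2 both lines were embryoid bodies, cell aggregates grown in serum medium without LIF, the cytokine that holds stem cells undifferentiated. At day 6 they were embryoid bodies that had also received all-trans retinoic acid at 10 µM, added with the medium from day 4. The time step and the retinoic acid therefore cannot be told apart here. The libraries of a group came from 3 independent differentiation experiments, per the study's design text. How the knockout was made, and whether the line is 1 clone, is not given in the sources used here.

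KAT6B is a lysine acetyltransferase of the MYST family that acetylates histone H3 as part of a complex with BRPF scaffold proteins, ING5 and MEAF6. Embryoid bodies leave pluripotency through a formative, epiblast-like state and then form cells of the 3 germ layers. Retinoic acid is a vitamin A derivative that binds RAR and RXR nuclear receptors on DNA, where it switches on its own degrading enzymes and receptors and the Hox genes, the homeobox genes that give cells their position along the head-to-tail axis. In embryoid bodies it is used to favour caudal neural cells over heart and mesoderm cells.

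Kat6b itself, the targeted gene (ENSMUSG00000021767, GRCm39 chr14:21531502-21722546, plus strand), was still read in the knockout. Its level, in TMM-scaled CPM (counts relative to library size), was 93.5, 128 and 136 CPM at day 2 and 84.8, 91.2 and 90.2 CPM at day 6, given here and throughout in the order of replicates 1, 2 and 3. In E14 it was 175, 173 and 252 CPM at day 2 and 91.7, 138 and 129 CPM at day 6, so every knockout library lay below every E14 library of its day. A count over the whole gene does not show an edited exon. The log2 change from day 2 to day 6 in the knockout was -0.42 ± 0.16 (SE) and did not pass the test (edgeR quasi-likelihood test, adjusted p = 0.053). This call lay near the threshold: the gene passed with DESeq2 (adjusted p = 0.044) and without day 2 replicate 1 (edgeR adjusted p = 0.0098), among 6 alternatives. Its paralog Kat6a was at 134, 115 and 127 CPM at day 2 and at 186, 163 and 182 CPM at day 6, with no overlap, and rose by 0.50 ± 0.13 on the log2 scale (edgeR adjusted p = 0.012).

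The 6 knockout libraries held 30.55 to 47.4 M (mega) gene counts. For genes with many counts, counting error was therefore small beside the spread between libraries (biological coefficient of variation 23.1%), and the p-values measure that spread. For genes with few or no counts in a group, counting error was not small, and the spread within that group is poorly measured. The first principal component took 76.2% of the variance and separated the days. The second took 9.72% and set replicate 1 of both days apart from replicates 2 and 3. At day 2, replicate 1 had the highest summed level of the formative epiblast list (4185 CPM against 2001 and 2359) and the lowest of the naive pluripotency list (908 CPM against 1846 and 1877). Mitochondrial genes took 1.39% to 3.16% of counts at day 2 and 0.846% to 2.05% at day 6, with replicate 2 highest at both days. The part of these library differences in the results was not tested.

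From day 2 to day 6, 8268 genes (42.8% of those tested) changed in the knockout, 4273 of them higher (22.1%) and 3995 lower (20.7%), by edgeR's quasi-likelihood test with Benjamini-Hochberg adjustment at 0.05. The libraries of the 2 days did not overlap for 10618 genes (54.9%). Of the genes called, 2882 rose and 2100 fell by at least 2-fold, and 1391 rose and 827 fell by at least 4-fold. The median log2 change was 0.012 over all genes tested, which the scaling of the libraries holds near 0. Counts of list members below are read against the 22.1% higher and 20.7% lower of this fit. With all 48 libraries in 1 fit, 4264 genes were higher and 5040 lower.

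Genes of the retinoic acid pathway rose, and 2 of them hold in their promoters the kind of sequence that its receptors bind. Retinoic acid receptors bind pairs of a short half-site that repeat in the same direction, classically with 5 bases between them. The half-sites searched for were AGGTCA and, as known variants of it, AGTTCA as well as GGGTCA and also the form GGTTCA. They were taken as direct repeats, in any combination, with a 5-base spacer and on both strands, in 300-base windows of RefSeq (GRCm38.p6) around gene starts. Of 32851 windows, 32 (0.0974%) held such a repeat. Of the 61 genes on the retinoic acid, receptor and Hox lists, 39 matched a window by symbol and 2 held the repeat, Cyp26a1 and Rarb. They are shown from 150 bases before the start up to the start, 5′ to 3′ on the gene's strand, with the half-sites in capitals.
Cyp26a1: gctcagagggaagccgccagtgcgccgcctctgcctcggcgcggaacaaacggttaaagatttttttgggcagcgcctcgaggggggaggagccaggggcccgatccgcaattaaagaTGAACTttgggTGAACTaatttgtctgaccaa
Rarb: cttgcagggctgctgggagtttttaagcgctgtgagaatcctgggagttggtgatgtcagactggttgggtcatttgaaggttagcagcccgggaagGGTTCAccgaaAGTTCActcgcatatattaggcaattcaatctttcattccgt
The Cyp26a1 stretch is chr19:37697658-37697807 on the plus strand, and its half-sites read AGTTCA on the opposite strand, beginning 32 bases before the start. The Rarb stretch is chr14:16575477-16575626 on the minus strand of that build, with the repeat on the gene's own strand, 53 bases before the start. A match is a description of letters, not a measured binding site. Counted by gene over the whole comparison, 3 of the 2780 matched genes that rose had the repeat in a window (0.108%). So did 3 of 2918 matched genes that fell (0.103%) and 4 of 7146 not called (0.056%).

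Of the 3 Cyp26 genes, whose enzymes break retinoic acid down, 2 rose. Cyp26b1, a cytochrome P450 that hydroxylates retinoic acid (ENSMUSG00000063415, GRCm39 chr6:84548396-84570890), was at 0.875, 0.452 and 0.829 CPM at day 2 and at 736, 594 and 698 CPM at day 6. Its mean level was 941-fold higher at day 6, a log2 change of 9.89 ± 0.28 (edgeR adjusted p = 4.7e-08), and the libraries of each day lay close together. Cyp26a1, of the same family, was at 3.17, 10.7 and 8.22 CPM at day 2 and at 331, 292 and 367 CPM at day 6 (log2 change 5.48 ± 0.40, edgeR adjusted p = 1.1e-05). The third family member, Cyp26c1, did not pass the test and stayed between 0.355 and 0.724 CPM in all 6 libraries. Dhrs3, which reduces retinal back to retinol and so lowers retinoic acid synthesis, was at 6.04, 6.85 and 7.18 CPM at day 2 and at 178, 157 and 158 CPM at day 6 (log2 change 4.62 ± 0.15).

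Genes of retinol uptake and of retinoic acid binding and synthesis rose too. Of the 12 members of the list of retinoic acid synthesis, binding and breakdown that were tested, 11 rose and none fell, against 22.1% and 20.7% of all genes, with a median log2 change of 4.01. Stra6, the membrane receptor that takes up retinol, was at 2.63, 1.76 and 1.78 CPM at day 2 and at 60.9, 21.1 and 30.4 CPM at day 6. Crabp1 and Crabp2, which carry retinoic acid inside the cell, reached 101, 18.3 and 39.4 CPM and 173, 76 and 119 CPM at day 6, and in both genes replicate 1 was the highest library and replicate 2 the lowest. Crabp1 had lain between 6.58 and 10.6 CPM at day 2 and Crabp2 between 6.07 and 10.5 CPM, so the days did not overlap for either (log2 changes 2.57 ± 0.53 and 3.83 ± 0.32). Among the enzymes that make retinoic acid, Aldh1a2 was at 0.724, 1.14 and 0.924 CPM at day 2 and at 12.1, 4.67 and 7.75 CPM at day 6 (log2 change 3.13 ± 0.39). Aldh1a1 had 2 counts over the 3 day 2 libraries and 2.93, 3.06 and 2.61 CPM at day 6, a ratio of 168 with a counting interval of 46.1 to 1392. Aldh1a3 was not tested, for low counts.

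Of 9 receptor and corepressor genes 4 rose and 2 fell. Rarb was at 0.543, 0.143 and 0.403 CPM at day 2 and at 129, 139 and 128 CPM at day 6, a 364-fold higher mean (log2 change 8.54 ± 0.31, edgeR adjusted p = 9.3e-08). Rara and Rxra rose less, by log2 1.23 ± 0.18 and 0.88 ± 0.20. Rarg fell, from 76, 52.6 and 65.4 CPM to 31.6, 37.7 and 43.2 CPM (log2 change -0.78 ± 0.18, edgeR adjusted p = 0.0056), and so did Rxrg (log2 change -3.93 ± 0.71), which was at most 2.42 CPM in any library. The corepressor gene Ncor1 and the receptor gene Rxrb did not pass the test. Nrip1, a ligand-dependent corepressor that retinoic acid is known to switch on, was at 23.9, 23.6 and 22 CPM at day 2 and at 214, 179 and 209 CPM at day 6 (log2 change 3.12 ± 0.14). Stra8, a germ cell gene first found as a retinoic acid target, was at 1.36, 3.19 and 2.98 CPM at day 2 and at 128, 239 and 194 CPM at day 6 (log2 change 6.21 ± 0.36).

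**Figure D1:**
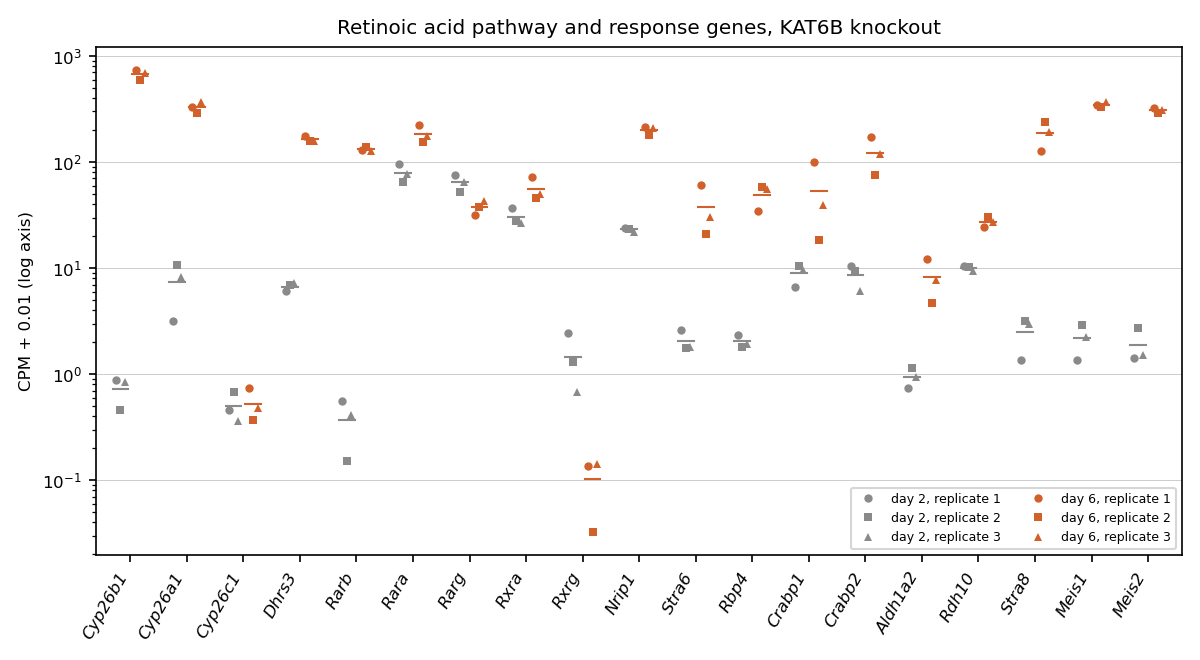
CPM in each KAT6B knockout library at day 2 (grey) and day 6 (orange) for 19 genes of the retinoic acid pathway and response, on a log axis after adding 0.01; circles, squares and triangles are replicates 1, 2 and 3 and lines are means. Cyp26b1 goes from under 1 CPM to between 594 and 736 CPM and Rarb to between 128 and 139 CPM, while Rarg and Rxrg go down.

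The Hox genes rose from near 0, those at the head end of the clusters to the highest levels per length. The mouse has 39 of them in 4 clusters, numbered by paralog group from the 3′ end, where the genes for hindbrain and neck lie, to the 5′ end, where those for the tail lie. Of the 27 tested, 25 rose and none fell, with a median log2 change of 7.80, and the remaining 12 had too few counts to test. Most of the 27 were near 0 at day 2 and passed the filter on counts through their day 6 levels. For those a fall could not have been called, so the count of rises was largely set by the filter. Their summed level was 4.38, 4.92 and 3.93 CPM at day 2 and 1225, 576 and 775 CPM at day 6. Levels of different genes were set side by side per kilobase of exon (exon lengths from GENCODE M21, matched by identifier for all 39). All 15 genes of paralog groups 1 to 5 rose and had a median day 6 level of 17 CPM per kb, with Hoxd1 at 0.854 and Hoxa5 at 37.9. Of the 12 genes of groups 6 to 9, 9 passed the filter, through their day 6 counts, and all of these rose. The median over the 12 was 0.495 CPM per kb at day 6, and none was above 0.0856 CPM per kb at day 2. Of the 12 genes of groups 10 to 13, 3 were tested and 1 rose, Hoxb13, and the median over the 12 was 0.0345 CPM per kb.

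**Figure D2:**
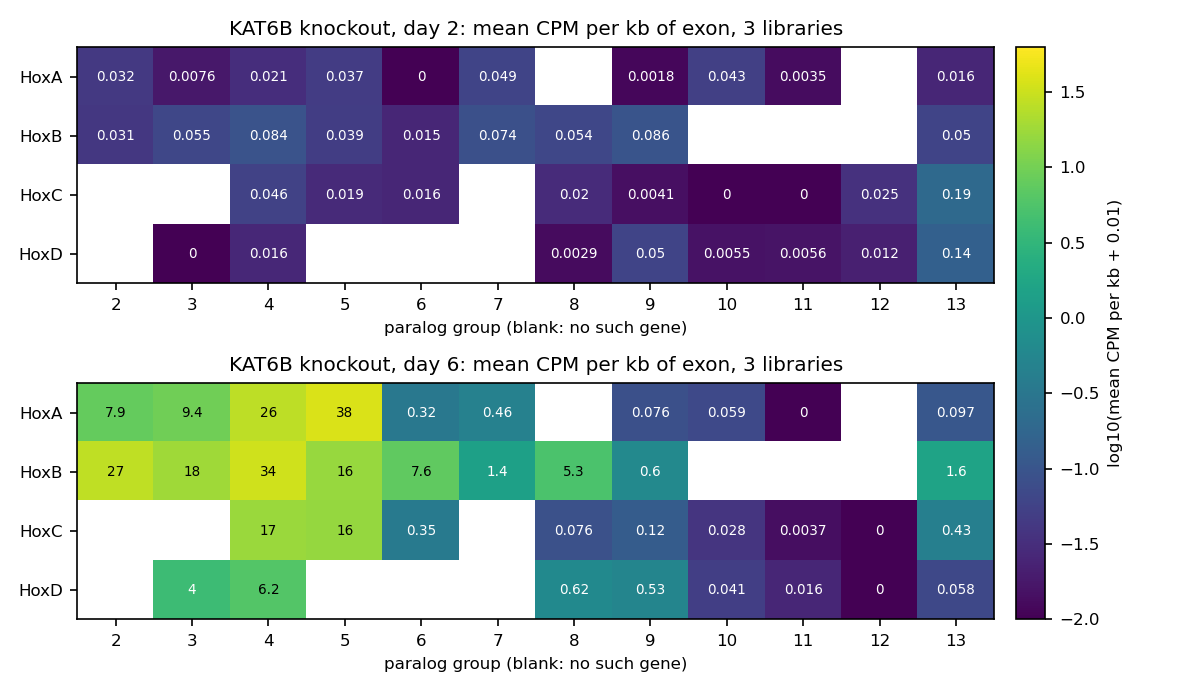
Mean CPM per kilobase of exon of the 36 Hox genes of paralog groups 2 to 13 in the KAT6B knockout at day 2 (top) and day 6 (bottom), by cluster (rows) and paralog group (columns); colour is the log10 of the level plus 0.01. At day 2 none of them is above 0.192, and at day 6 the high levels sit in groups 2 to 5, up to 37.9 for Hoxa5.

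Hoxb1, which marks the fourth segment of the hindbrain, was at 0.302, 0.167 and 0.213 CPM at day 2 and at 90, 69.3 and 89.7 CPM at day 6, a 365-fold higher mean (log2 change 8.53 ± 0.26, edgeR adjusted p = 4.7e-08). Its 3 day 6 libraries lay close together. Hoxa3, with 5 counts in all at day 2, was at 77.4, 41.4 and 51.4 CPM at day 6, and Hoxa5, with 8, was at 111, 51.7 and 50.7 CPM.

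Some Hox genes differed widely between the day 6 libraries. Hoxd3 had no count in any day 2 library and was at 34.1, 3.82 and 12.8 CPM at day 6, at least 662-fold higher against a floor of 3 counts over the group. Hoxb6 was at 30.6, 4.09 and 9.87 CPM at day 6 and Hoxb8 at 31.4, 2.71 and 8.08 CPM. In each of these genes replicate 1 was highest and replicate 2 lowest. That order was common in the family: of the 24 Hox genes of groups 1 to 9 called higher, 17 were highest in replicate 1 and 18 were lowest in replicate 2. Hoxb13, of the tail-most group, rose from at most 0.214 CPM to 3.65, 4.25 and 2.77 CPM (log2 change 4.90 ± 0.61), while the 2 other tested genes of that group, Hoxc13 and Hoxd13, did not pass the test. Neighbouring Hox genes share or overlap transcripts, and the strand setting of the counting is not given, so reads of Hoxb3 and its antisense partner Hoxb3os (1 count at day 2 and 22, 10.2 and 13.4 CPM at day 6) cannot be told apart.

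Partners of the Hox proteins rose with them. The TALE factors Meis1 and Meis2 bind DNA jointly with Hox proteins. Meis1 was at 1.36, 2.92 and 2.25 CPM at day 2 and at 342, 329 and 368 CPM at day 6 (log2 change 7.30 ± 0.27), and Meis2 at 1.42, 2.69 and 1.52 CPM and then at 325, 288 and 308 CPM (7.35 ± 0.27). Of the 12 tested members of the list of cofactors and caudal factors 11 rose and none fell, and only Pknox1 did not pass the test. Cdx1, a caudal factor upstream of Hox genes, rose from at most 0.214 CPM to 4.79, 12.3 and 7.57 CPM.

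Genes of the core pluripotency network and of the formative epiblast fell. Of the 16 genes of the core pluripotency list 15 fell and none rose, with a median log2 change of -1.75, and of the 15 tested formative epiblast genes 11 fell and 1 rose, with a median of -2.43. The difference between the lists was not tested. The 1 that rose, Cdh2, encodes N-cadherin and is also a neural and mesenchymal gene. Fgf5, the ligand that marks the epiblast, was at 91.8, 38.3 and 30.6 CPM at day 2 and at 0.944, 0.559 and 0.443 CPM at day 6 (log2 change -6.40 ± 0.52, edgeR adjusted p = 1.8e-05). Dnmt3b, a de novo DNA methyltransferase, was at 2275, 766 and 1026 CPM and then at 50.1, 52 and 55.9 CPM (-4.68 ± 0.39). In both genes replicate 1 stood far above the other day 2 libraries. At day 6 the Dnmt3b libraries were close together, and for Fgf5 replicate 1 was again the highest. Otx2, an anterior and epiblast homeobox gene, was at 151, 114 and 151 CPM and then at 1.64, 2.39 and 4.87 CPM (-5.52 ± 0.37), and Pou3f1 at 174, 76.8 and 67.8 CPM and then at 1.39, 1.52 and 4.21 CPM (-5.46 ± 0.54).

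Oct4, encoded by Pou5f1, was at 538, 518 and 473 CPM at day 2 and at 30.7, 63.4 and 36.9 CPM at day 6 (log2 change -3.54 ± 0.26, edgeR adjusted p = 5e-06). Tdgf1, the Nodal coreceptor Cripto, was at 251, 524 and 414 CPM and then at 9, 15.5 and 10.4 CPM (-5.08 ± 0.32). Sox2 and Nanog fell less, by log2 2.09 ± 0.23 and 1.95 ± 0.47, and Nanog was still at 28.3, 90.8 and 31 CPM at day 6. Replicate 2 was the highest of the day 6 libraries for Pou5f1, Tdgf1, Sox2 and Nanog alike. In bulk RNA, fewer cells of a type and less RNA per cell cannot be told apart.

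The naive pluripotency list did not move as a block: 9 of its 20 genes fell, 4 rose and 7 did not pass the test. Nr0b1, Fgf4 and Tcl1 fell by log2 3.98 ± 0.47, 3.82 ± 0.36 and 3.08 ± 0.64. Tbx3, which is also expressed in later mesoderm and endoderm, was at 11.3, 24.6 and 26.2 CPM at day 2 and at 51.5, 78.4 and 72.7 CPM at day 6 (log2 change 1.71 ± 0.29). Gbx2, also a gene of the anterior hindbrain, rose by 2.59 ± 0.46, and Tet2 and the LIF receptor gene Lifr by 1.13 ± 0.35 and 1.06 ± 0.23. Klf4 was at 10.3, 26.5 and 19.1 CPM and then at 26.5, 19.5 and 21.5 CPM, with the days overlapping.

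Nodal signalling and primitive streak genes fell, 12 of 18 tested against 1 that rose, with a median log2 change of -2.85. Lefty1, an inhibitor that Nodal itself induces, was at 135, 144 and 126 CPM at day 2 and at 5.7, 7.07 and 3.25 CPM at day 6 (log2 change -4.66 ± 0.26). Nodal was at 56, 41.6 and 33.6 CPM and then at 3.71, 9.1 and 7.08 CPM (-2.71 ± 0.32). Brachyury, the gene T, which marks the streak, was at 5.71, 26.2 and 25.7 CPM at day 2, with replicate 1 low, and at 0.787, 1.25 and 0.642 CPM at day 6 (-4.41 ± 0.58). The gene of this list that rose, Foxa2, also marks endoderm and floor plate.

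Among all genes that fell, those with the largest change included Fgf8 (8.94, 13.6 and 17.8 CPM at day 2, at most 0.288 CPM at day 6), Foxd3, Trh, Foxi3, Pim2 and the noncoding RNA Platr10, with log2 changes between -6.66 and -5.75. Trim67 went from 17.4, 24.4 and 17.9 CPM to 0.315, 0.403 and 0.354 CPM (-5.77 ± 0.28).

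**Figure D3:**
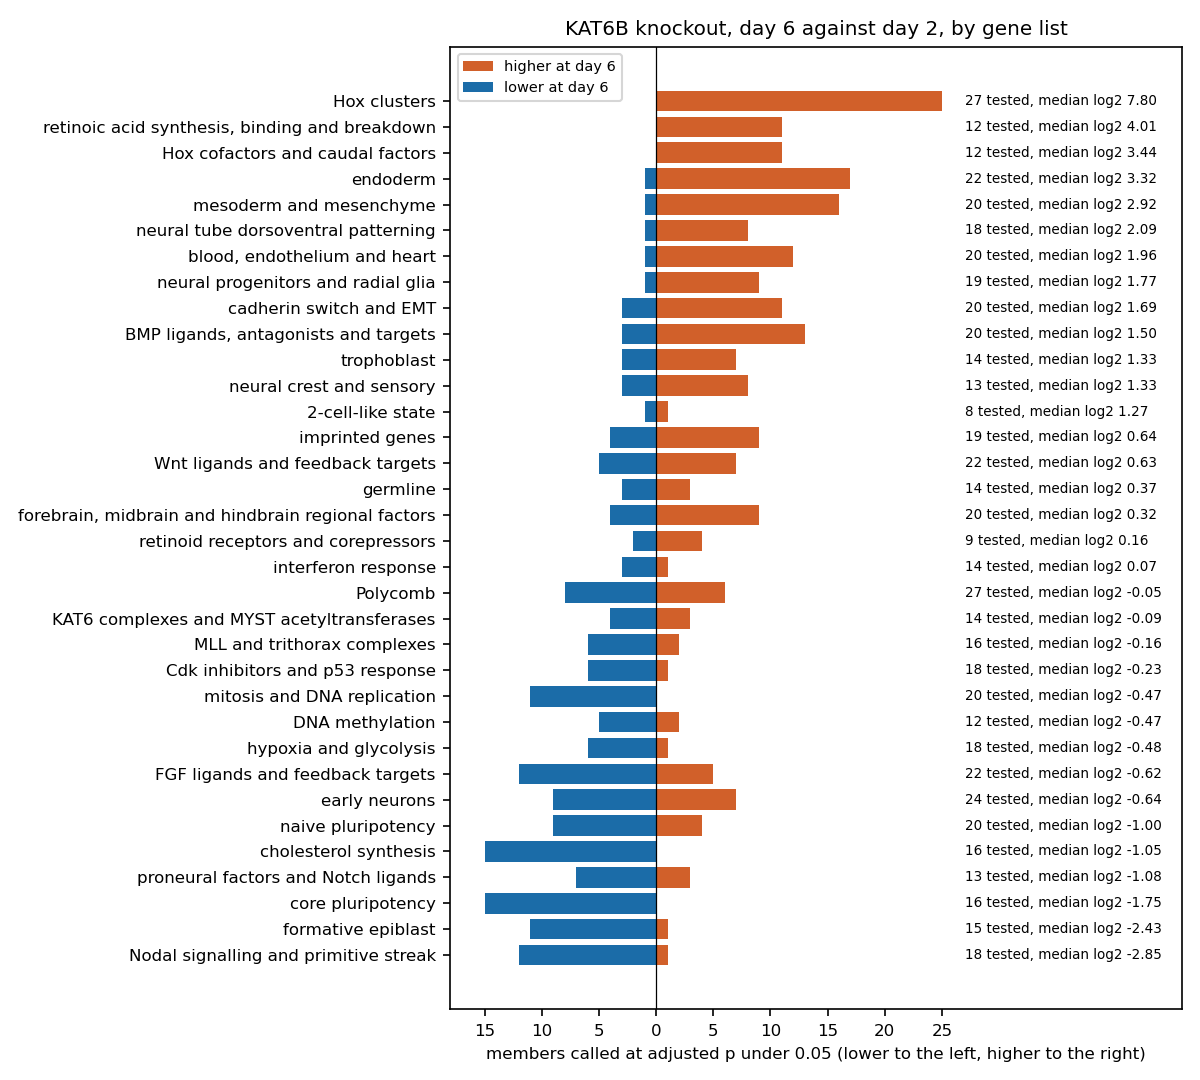
Members of each gene list called lower (blue, to the left) or higher (orange, to the right) in the KAT6B knockout at day 6 against day 2, with the number tested and the median log2 change. The Hox list has 25 of 27 higher and a median of 7.80, and the list of Nodal and primitive streak genes has 12 of 18 lower and a median of -2.85.

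Some neural progenitor genes rose and differed widely between the day 6 libraries. Of 19 tested genes of the list of neural progenitors and radial glia 9 rose, 1 fell and 9 did not pass the test, with a median log2 change of 1.77. Pax6, a homeobox gene of the neural tube, was at 2.9, 1.36 and 2.13 CPM at day 2 and at 69.8, 8.43 and 42.8 CPM at day 6 (log2 change 4.25 ± 0.68, edgeR adjusted p = 0.0011). Irx3 was at 2.29, 1.5 and 0.711 CPM and then at 70.2, 32.4 and 45.7 CPM (5.06 ± 0.43), and Pou3f2 at most 0.308 CPM and then at 17.3, 1.16 and 5.98 CPM (5.15 ± 0.94). In each of these replicate 1 was highest and replicate 2 lowest. Of the 9 progenitor genes that rose, 8 were highest in replicate 1 and 7 were lowest in replicate 2, and the highest day 6 library was a median of 5.33 times the lowest. The same replicate 2 had the highest Nanog level and the highest mitochondrial share of the day 6 libraries, and their part in this spread was not tested.

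Sox1, the earliest neural plate gene, did not pass the test: it was at 1.66, 0.856 and 0.474 CPM at day 2 and at 7.24, 0.984 and 2.57 CPM at day 6 (edgeR adjusted p = 0.052). Dbx1, an interneuron progenitor gene, was at 39.4, 0.179 and 6.07 CPM at day 6 and Wnt1, of the dorsal neural tube, at 4.12, 0.0224 and 1.53 CPM, and both were too uneven to pass the filter on counts. The list of dorsoventral patterning genes had 8 of 18 tested genes higher and 1 lower. That count rests on single libraries: it was 13 without day 6 replicate 2 and 5 without day 6 replicate 1. The progenitor count was 12 and 7 without the same libraries. Sox9, a progenitor gene also found in endoderm and crest, was steadier, at 4.38, 2.21 and 2.91 CPM and then at 49.2, 27.4 and 43.6 CPM (log2 change 3.67 ± 0.31).

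Genes of differentiating neurons were split. Of 13 tested proneural and Notch ligand genes 3 rose and 7 fell, and of 24 tested early neuron genes 7 rose and 9 fell. Among all genes 22.1% rose and 20.7% fell, so the shares that rose in these lists were not far from that among all genes. Onecut2, a factor of motor neurons and also of liver, was at 2.84, 2.69 and 2.61 CPM at day 2 and at 51.3, 40.3 and 36.7 CPM at day 6 (log2 change 3.98 ± 0.20). By contrast Tubb3, the neuronal tubulin, was at 37.1, 36.3 and 29.1 CPM at day 2 and at 6.23, 5.28 and 2.52 CPM at day 6 (-2.87 ± 0.30), and Ina and Stmn2 fell by log2 3.25 ± 0.23 and 3.64 ± 0.47. Dll3, an inhibitory Notch ligand, fell by 2.85 ± 0.38, while Dll4, the ligand of vessels, rose by 3.38 ± 0.50.

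Regional brain genes were split: 9 of 20 tested rose and 4 fell, against 22.1% and 20.7% of all genes. The share that fell was near that among all genes. Otx2 was among those that fell, with the values above.

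Genes of endoderm, mesoderm and vessels rose together with the neural ones, and more evenly over the libraries. Of 22 tested endoderm genes 17 rose and 1 fell (median log2 change 3.32), of 20 tested mesoderm and mesenchyme genes 16 rose and 1 fell (median 2.92), and of 20 tested genes of blood, endothelium and heart 12 rose and 1 fell (median 1.96). Gata6, which specifies primitive endoderm and is also found in mesoderm, was at 2.84, 5.68 and 7.46 CPM at day 2 and at 128, 125 and 152 CPM at day 6 (log2 change 4.66 ± 0.31). Foxa1 was at 0.845, 0.666 and 0.64 CPM and then at 47.6, 41 and 29.9 CPM (5.79 ± 0.26). Afp, the yolk sac and liver protein, was at 12.2, 23.8 and 45 CPM at day 6 from at most 0.513 CPM (6.88 ± 0.74), with replicate 3 highest. Col4a1, a basement membrane collagen, was at 93.6, 101 and 75.7 CPM and then at 934, 853 and 1019 CPM. The epithelial adhesion gene Epcam was the endoderm gene that fell (-1.23 ± 0.15).

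Foxf1, a forkhead gene of lateral and splanchnic mesoderm, was at 0.0906, 0.19 and 0.284 CPM at day 2 and at 87.8, 56.9 and 74 CPM at day 6 (log2 change 8.53 ± 0.33, edgeR adjusted p = 1.1e-07). Meox1, of somites, was at 0.543, 0.737 and 0.805 CPM and then at 72.9, 54.1 and 55.4 CPM (6.43 ± 0.24). Osr1, of intermediate mesoderm, and Prrx1 and Col3a1, of mesenchyme, rose by 9.18 ± 0.53, 6.04 ± 0.32 and 5.87 ± 0.32. Tcf15, a gene of paraxial mesoderm that is also found in the epiblast, fell by 1.44 ± 0.19.

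Endothelial genes and embryonic globins appeared in all 3 day 6 libraries. Tie1 was at 0.755, 1.07 and 1.61 CPM at day 2 and at 55.4, 53.6 and 53.8 CPM at day 6 (log2 change 5.55 ± 0.26), and Kdr, the main VEGF receptor, at 4.47, 5.8 and 6.73 CPM and then at 136, 163 and 192 CPM (4.85 ± 0.21). Cdh5, the endothelial cadherin, was at 39.4, 61.2 and 55.1 CPM at day 6 from at most 1.45 CPM. The embryonic alpha-like globin Hba-x had 5 counts at day 2 and 33.3, 34.7 and 38.4 CPM at day 6. Hbb-bh1 and Hbb-y, the embryonic beta-like globins, had 1 and 3 counts at day 2, and at day 6 Hbb-bh1 was at 21, 58.7 and 38 CPM (a ratio of 4830 with a counting interval of 867 to 190820). Globin genes are near copies of each other, so reads can be shared among them. Clec1b and Gimap6, both without a count at day 2, rose to levels at least 274-fold and 216-fold higher, and Emcn, an endothelial mucin, had 1. Some other genes of blood and of heart muscle were not called higher. Gata1, Runx1 and Nkx2-5 did not pass the test, and Myh6, an atrial myosin, fell by 2.39 ± 0.33.

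**Figure D4:**
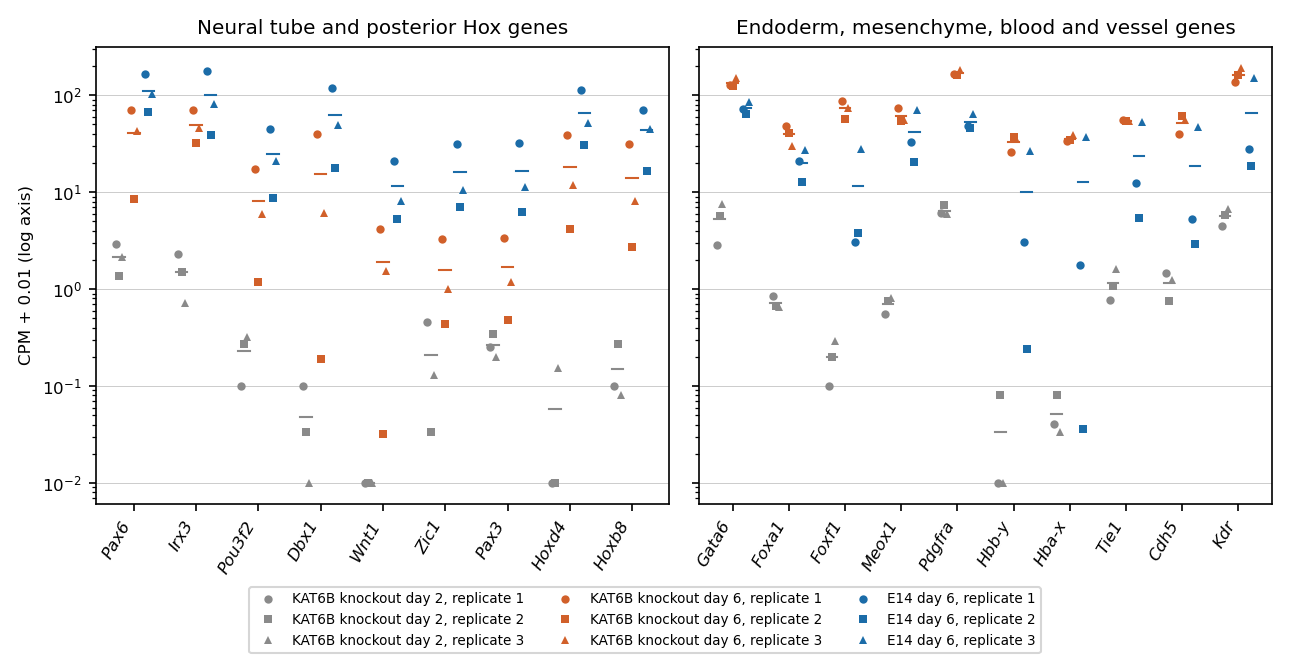
CPM in each library of the KAT6B knockout at day 2 (grey) and day 6 (orange) and of E14 at day 6 (blue), on a log axis after adding 0.01. The left panel holds neural genes with the Hox genes Hoxd4 and Hoxb8, and the right panel endoderm, mesoderm, blood and vessel genes. Circles, squares and triangles are replicates 1, 2 and 3 and lines are means. Pax6 in the knockout runs from 8.43 to 69.8 CPM at day 6, while Tie1 stays between 53.6 and 55.4 CPM; in E14, Tie1 runs from 5.41 to 53 CPM.

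On the list of the cadherin switch and the epithelial to mesenchymal transition 11 of 20 genes rose and 3 fell. Cdh1, E-cadherin, was at 707, 590 and 570 CPM at day 2 and at 142, 233 and 193 CPM at day 6 (log2 change -1.71 ± 0.20), and Cdh2 was at 26.8, 32.2 and 27.5 CPM and then at 125, 102 and 120 CPM (2.01 ± 0.15). The repressors of E-cadherin Zeb1, Snai2 and Twist1 rose by log2 2.90 ± 0.22, 3.77 ± 0.36 and 3.48 ± 0.28. Neural crest genes rose in 8 of 13 tested and fell in 3, but the defining crest gene Sox10 did not pass the test and Foxd3 fell from 42.3, 18.7 and 10.5 CPM to 0.252, 0.313 and 0.177 CPM.

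Signalling genes are given by family. Of 22 FGF ligands and feedback targets 12 fell and 5 rose, with Etv5, a transcription factor induced by FGF signalling, at 435, 419 and 496 CPM at day 2 and at 31.4, 59.4 and 48.9 CPM at day 6 (log2 change -3.27 ± 0.23). The feedback inhibitor Spry4 fell by 2.93 ± 0.23 and the ligand Fgf4 by 3.82 ± 0.36, while the ligand Fgf9 rose by 4.65 ± 0.76. Of 20 BMP ligands, antagonists and targets 13 rose and 3 fell: the ligands Bmp2, Bmp5 and Bmp7 rose by 3.05 ± 0.37, 4.61 ± 0.61 and 2.84 ± 0.26, and the targets Smad6 and Id2 by 2.59 ± 0.18 and 2.53 ± 0.23. Wnt genes were split, 7 higher and 5 lower of 22 tested, not far from the 22.1% and 20.7% among all genes. The Wnt antagonist Sfrp5 was at 1.66, 2.04 and 1.07 CPM and then at 103, 84.1 and 87.8 CPM (5.85 ± 0.25), the ligand Wnt5a rose by 3.70 ± 0.38, and the streak ligands Wnt3 and Wnt8a fell by 3.05 ± 0.32 and 3.24 ± 0.41.

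The other subunits of KAT6B's complexes mostly moved little. Brpf1, Brd1 and Meaf6 did not pass the test, Brpf3 rose by log2 0.42 ± 0.13 and Ing5 fell by 0.40 ± 0.14. The large changes on this list were in genes of the related KAT7 complexes: Jade2 was at 154, 76.8 and 83.9 CPM at day 2 and at 16.2, 12.6 and 18.4 CPM at day 6 (log2 change -2.73 ± 0.27, edgeR adjusted p = 3.8e-05), Jade3 fell by 1.29 ± 0.19, and Ing4 rose from 30.7, 27.4 and 29.7 CPM to 75.7, 62.2 and 55.5 CPM (1.14 ± 0.16). Over the list 3 of 14 genes rose and 4 fell, near the shares among all genes.

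Of 27 Polycomb genes 6 rose and 8 fell, not far from the 22.1% and 20.7% among all genes. Phc1 was at 977, 606 and 687 CPM at day 2 and at 92.7, 103 and 112 CPM at day 6 (log2 change -2.88 ± 0.20), while its paralog Phc2 rose by 1.72 ± 0.18. Cbx7, the stem cell form of the chromodomain subunit, fell by 1.56 ± 0.21, while Cbx8 rose by 2.56 ± 0.27. Among the oxidases that remove DNA methylation, Tet1 went from 556, 516 and 718 CPM to 160, 172 and 206 CPM (-1.73 ± 0.18) and Tet3 from 63.1, 38 and 37.8 CPM to 290, 160 and 183 CPM (2.19 ± 0.27). Kdm6b, which removes methyl groups from lysine 27 of histone H3, rose from 142, 89.4 and 106 CPM to 453, 292 and 382 CPM (1.74 ± 0.21).

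Of 19 imprinted genes 9 rose and 4 fell. The noncoding RNA H19 was at 232, 449 and 347 CPM at day 2 and at 5685, 7862 and 5287 CPM at day 6 (log2 change 4.20 ± 0.29, edgeR adjusted p = 3.5e-06). Its neighbour Igf2, a growth factor, was at 10.3, 12.5 and 19.9 CPM and then at 215, 282 and 590 CPM (4.67 ± 0.43), with replicate 3 highest at both days. Peg3 was at 305, 264 and 286 CPM and then at 5290, 4198 and 4058 CPM (3.99 ± 0.20), and Plagl1 and Mest rose by 3.70 ± 0.22 and 2.75 ± 0.19. Snrpn fell, from 664, 547 and 454 CPM to 112, 110 and 106 CPM (-2.34 ± 0.17). The cell cycle list had 11 of 20 genes lower and none higher, with a median log2 change of -0.47. Ccne1, cyclin E, was at 144, 138 and 132 CPM and then at 41.6, 42.6 and 37.7 CPM (-1.76 ± 0.13), while the proliferation marker Mki67 did not pass the test. The count of lower genes was 6 without day 6 replicate 3.

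Whether these changes were particular to the knockout was asked by testing the difference between the change in the KAT6B knockout and that in E14, in a fit of the 12 libraries. In E14, 8994 of 20324 genes changed (44.3%), 24.0% of those tested higher and 20.2% lower. Of the genes tested in both, 3475 rose and 3086 fell in both lines, which is 79.4% of those called in the knockout and 75.7% of those called in E14, and 2 were called in opposite directions. For this overlap the knockout calls and changes are from the fit of its 6 libraries and those of E14 from the fit of 12. The filter and the estimated spread differ between these fits, so the counts are not strictly alike. Across 19319 genes the log2 changes had a Pearson correlation of 0.90, as a description: genes are not independent replicates. The difference itself passed the test for 1 gene of 20324 (0.00492%), and 1385 had an unadjusted p under 0.05 (6.81%). That count was 45 with DESeq2.

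The gene was Pdgfra, the receptor of PDGF-A that marks mesenchyme, paraxial mesoderm and primitive endoderm (ENSMUSG00000029231, GRCm39 chr5:75312953-75358876). In the knockout it was at 6.07, 7.28 and 5.97 CPM at day 2 and at 167, 162 and 181 CPM at day 6. In E14 it was at 7.36, 6.91 and 5.86 CPM and then at 48.1, 45.8 and 64 CPM. The lines overlapped at day 2 and not at day 6. Its log2 change was 4.73 ± 0.16 in the knockout and 2.97 ± 0.16 in E14, a difference of 1.75 ± 0.21 (edgeR adjusted p = 0.016). The call rests on single libraries: leaving out each library in turn kept it in 7 of 12 fits, with an adjusted p of up to 0.098, and it was lost without replicate 1 of the knockout at both days (adjusted p = 0.066) and with all 48 libraries in the fit (0.90). The log2 difference itself stayed between 1.66 and 1.91 when each library was left out, and was 1.73 and 1.74 in those last fits.

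Other genes that looked unlike E14 did not pass that test. Among genes with a negative difference, Trim67, Nuak1 and Plk3 had the smallest p-values under the naming rule. Trim67 changed by log2 -5.77 in the knockout and -4.00 in E14, a difference of -1.78 ± 0.32 (edgeR adjusted p = 0.29). With DESeq2 these genes passed (adjusted p = 0.0075, 0.00098 and 0.00088). When each library was left out in turn, they passed in 1, 2 and 1 of 12 edgeR fits. Of the proneural and Notch ligand genes, 3 rose and 7 fell of 13 tested in the knockout, and 8 rose and 3 fell of 17 tested in E14. The knockout counts are from the fit of its 6 libraries and the E14 counts from the fit of 12. More genes of the list passed the filter in the latter, so the counts do not cover the same genes. The smallest edgeR adjusted p of the difference on that list was 0.556. Pax3, of the dorsal neural tube, was at 3.34, 0.47 and 1.17 CPM at day 6 in the knockout and at 31.8, 6.16 and 11.2 CPM in E14, and Dbx1 was at 119, 17.8 and 49.7 CPM in E14 against the values above. In both lines replicate 2 had the lowest level of the 9 progenitor genes that rose, for 7 of 9 in the knockout and for 9 of 9 in E14. The vessel, blood and mesoderm genes named here were uneven over the E14 libraries, with replicate 3 highest: Tie1 was at 12.5, 5.41 and 53 CPM in E14 at day 6, Hba-x at 1.77, 0.0256 and 36.6 CPM and Foxf1 at 3.02, 3.75 and 28.1 CPM. Summed over the list of blood, endothelium and heart, E14 was at 135, 138 and 507 CPM and the knockout at 503, 635 and 592 CPM. Without E14 day 6 replicate 3 the number of genes that differed was 105.

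**Figure D5:**
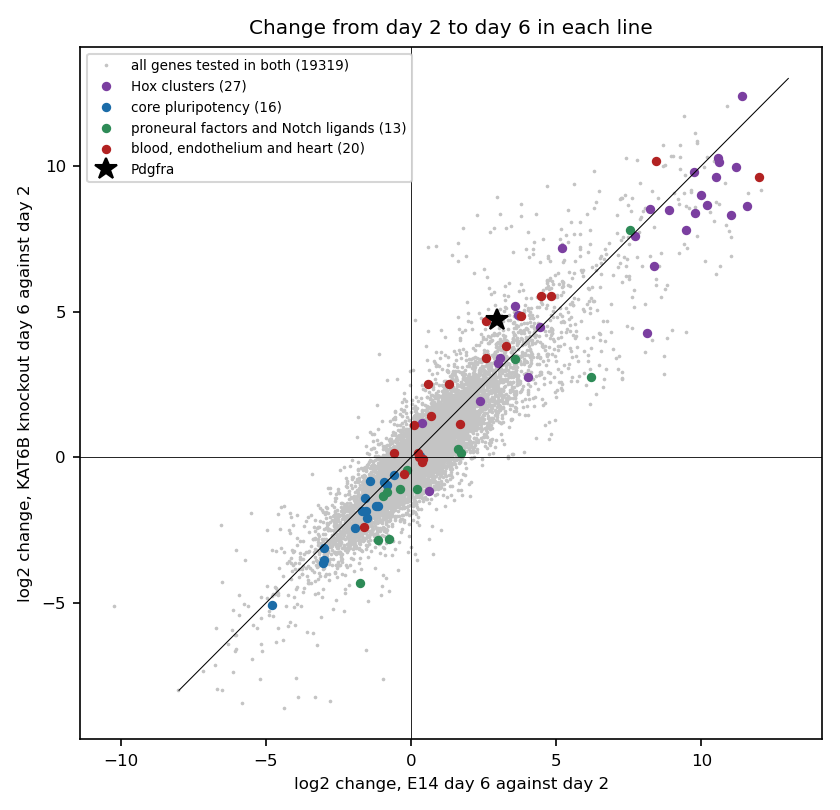
Log2 change from day 2 to day 6 in E14 (horizontal) and in the KAT6B knockout (vertical) for 19319 genes (grey), with Hox, core pluripotency, proneural and Notch, and blood and vessel genes in colour and Pdgfra as a star. Most genes lie along the diagonal (Pearson correlation 0.90), and Pdgfra lies above it at 4.73 against 2.97.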

How the data were processed

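RNA of embryoid bodies was sequenced after ribosomal RNA depletion, as strand-specific 150 bp paired reads, per the labels' protocols. The authors deposited raw gene counts of 48 libraries. HISAT2 and GRCm39 are named in the submitters' processing notes; which program counted the reads, with which strand setting and annotation, is not stated in those notes or the labels. Of 36983 entries, the 48 repeating a gene identifier were left out, and 9239 of the 36935 genes kept had no count in the 6 knockout libraries.

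The main tool was edgeR 4.0.16 (R 4.3.3), with its group-wise filter on expression (minimum count 10, minimum total 15), TMM scaling and the robust quasi-likelihood F test. Calls were made under 0.05 after Benjamini-Hochberg adjustment over all genes tested. The day 6 against day 2 comparison used the 6 knockout libraries (30.55 to 47.4 M counts), and the difference from E14 used 12 libraries. Levels are CPM scaled over those 12. Standard errors are the log2 change divided by the square root of F. Promoter sequences are from RefSeq (GRCm38.p6) and exon lengths from GENCODE M21, an older build than that of the counts, so no coordinates were carried over.

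The named genes were the 10 called genes per direction with the largest change, a mean of at least 5 CPM in the higher group, libraries that did not overlap and a symbol that is not a predicted gene. Up to 4 called members of each of 34 lists (591 genes), the smallest p-values of the difference from E14, Kat6b and Kat6a were added. Some genes of these lists are not reported here. Other list members given were chosen after their values were seen. The lists, genes and comparisons were chosen with earlier results of these data known. The fits were tested on simulated data with known changes. Alternatives were relative log expression size factors, DESeq2 1.42.0, no filter, a filter of 1 CPM in 3 libraries, fits of all 48 or of the knockout's 12 libraries, a replicate term, and leaving out each library.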

Additional observations from a re-analysis of the deposited data

Results flagged for a closer look

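Pdgfra was singled out because its change from day 2 to day 6 differed between the KAT6B knockout and E14 by a test of the difference itself. Its log2 difference was 1.75 ± 0.21 (SE, edgeR adjusted p = 0.016), with 167, 162 and 181 CPM at day 6 in the knockout and 48.1, 45.8 and 64 CPM in E14. All 3 knockout libraries at day 6 lay above all 3 of E14. DESeq2 gave an adjusted p of 2.9e-09, and the fit of all 48 libraries one of 0.90 with a log2 difference of 1.74.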

How the results depend on the processing

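The count of genes called from day 2 to day 6 stayed within 1.5 times of 8268 under every alternative run, from 6755 with the 12 knockout libraries in 1 fit to 10508 with a replicate block, and from 6250 to 8240 when 1 library was left out. With all 48 libraries in 1 fit 4264 genes were higher and 5040 lower. The replicate block gave 5222 higher and 5286 lower. The deviations of same-numbered libraries of the 2 days correlated at 0.249, 0.27 and 0.098, and each library correlated best with its own number. Libraries with other numbers correlated at -0.301 to 0.08. The sources used here do not say whether the numbers match across days. The main fit did not take them as pairs, and whether they are pairs was not tested. The block left 1 gene differing from E14 (Pdgfra, edgeR adjusted p = 0.039). The number of genes differing from E14 was 45 with DESeq2, 0 with all 48 libraries in 1 fit, 0 without replicate 1 of the knockout at both days, and 0 to 105 when 1 library was left out. It was 105 without E14 day 6 replicate 3, 3 without knockout day 2 replicate 1, and 0 without E14 day 2 replicate 1 or 2, E14 day 6 replicate 1, or knockout replicate 3 of either day; the cause was not tested. Of 140 named genes that were called, 130 were called in all alternatives run and none changed direction. Those lost in at least 1 were Pax2, Egln3, Oasl2, Hoxd3, Tcl1, Cer1, Usp18, Jade1, Shh and Nuak1, of which Hoxd3, Tcl1, Cer1 and Usp18 were lost only without a filter on low counts. Kat6b, not called, passed the test under 6 alternatives: RLE size factors (edgeR adjusted p = 0.045), DESeq2 (0.044), all 48 libraries in 1 fit (0.027), the replicate block (0.0084), without day 2 replicate 1 (0.0098) and without replicate 1 at both days (0.025). With 3 libraries a group, changes near the spread between libraries are not detectable.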

Other observations

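Cholesterol synthesis genes fell together in the knockout: 15 of 16 were lower at day 6 and none higher, against 20.7% and 22.1% of all genes, with a median log2 change of -1.05. Hmgcs1, an early enzyme of the pathway, was at 581, 586 and 573 CPM at day 2 and at 202, 247 and 202 CPM at day 6 (log2 change -1.42 ± 0.15, edgeR adjusted p = 4.5e-05). Idi1 fell by 1.79 ± 0.19, and the member that did not pass the test, Sc5d, was at 46.5, 57.1 and 44.6 CPM and then at 34.3, 44.7 and 37.8 CPM. Their summed level was 3513, 3461 and 3592 CPM at day 2 and 1707, 1789 and 1600.1 CPM at day 6, with no overlap, and 2003, 1648 and 1945 CPM in E14 at day 6. Of the hypoxia and glycolysis list 6 of 18 genes fell and 1 rose: Pdk1, which restrains pyruvate entry into mitochondria, went from 249, 431 and 412 CPM to 105, 142 and 139 CPM, and Vegfa, the vessel growth factor, rose from 16, 25.9 and 43.5 CPM to 142, 114 and 153 CPM. The number that fell was 3 without day 2 replicate 3 and 11 with the replicate block.

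Lists of other cell states held genes that rose and genes that fell. Of 14 tested trophoblast genes 7 rose and 3 fell, with Gata3 at 0.936, 0.975 and 1.07 CPM at day 2 and at 14.5, 11.1 and 16.2 CPM at day 6 (log2 change 3.81 ± 0.26), while Eomes and Ascl2 fell. Of 14 germline genes 3 rose and 3 fell, near the shares among all genes, and 6 rose and 5 fell with the replicate block. The meiotic cohesin gene Rec8 rose by 2.12 ± 0.16 and Sycp3 and Mael fell by 2.96 ± 0.43 and 2.09 ± 0.42. Of 8 tested genes of the 2-cell-like state 1 rose, Zscan4f, from 0.453, 0.618 and 0.403 CPM to 1.07, 2.97 and 1.59 CPM, and that count was 6 without day 6 replicate 1. Zscan4 genes are near copies, so reads can be shared among them. Zfp459 fell from 20.2, 52.7 and 40.5 CPM to 1.79, 4.43 and 3.72 CPM. Of 18 genes of Cdk inhibitors and the p53 response 6 fell and 1 rose: Pmaip1, which encodes the apoptosis protein Noxa, fell by 3.08 ± 0.34, and Cdkn2c rose by 1.94 ± 0.38. In the interferon list 1 of 14 rose (Usp18) and 3 fell, against 3 and 5 with the replicate block and 3 and 2 without day 2 replicate 2. The list held Irf1 at 172, 210 and 169 CPM and then at 32.2, 47.7 and 45.6 CPM.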
